A study of Homo sapiens with 58 samples.

Results

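The regulators of G-protein signaling (RGS proteins) followed here are RGS2, RGS4, RGS5, RGS10, RGS16 and RGS20, 6 of the 19775 genes measured by a probe set with 1 gene symbol on the array used (Affymetrix U133 Plus 2.0). They were chosen by name with earlier results of these data known, RGS4 among them on its difference between lines in serum. Their symbols are carried by 18 probe sets. The probe set with the highest mean over the 58 arrays stands for each gene, and the values are deposited log2 expression values from which processing-date effects had already been removed. The arrays compare HaCaT, an immortalized human keratinocyte line, with variants that carry forced expression of EGFR (HaCaT-EGFR), HRAS-VAL12D (HaCaT-HRAS) or RELA/p65 (HaCaT-p65) and with a mock line that carries the vector (HaCaT-vector). Groups in serum hold 5 HaCaT-EGFR, 3 HaCaT-HRAS, 3 HaCaT-p65, 3 HaCaT-vector and 3 parental HaCaT arrays. Without serum there are 7 EGF-treated and 7 starved HaCaT-EGFR arrays and 5 TNF-treated and 3 starved HaCaT-p65 arrays, taken at 4 or 8 h. The 4 EGF-treated, 3 TNF-treated and 4 starved HaCaT-vector arrays were all taken at 4 h. Comparisons of starved lines, and of ligand responses between lines, therefore set mixed times against 4 h alone. Gefitinib, which inhibits the EGFR kinase, was given to HaCaT-EGFR with EGF (2 arrays) and in serum (2 arrays). LY294002, a PI3-kinase inhibitor, and the inhibitor labelled U1026 were each given with EGF on 1 HaCaT-EGFR and 1 HaCaT-vector array. Each variant is 1 line, so a difference between lines cannot be told apart from a difference between the isolates, and labels do not say whether replicates are separate cultures: p-values measure the spread between these arrays.

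Heterotrimeric G proteins carry signals from seven-transmembrane receptors, and the signal ends when the alpha subunit hydrolyses its GTP. RGS proteins speed that hydrolysis and so shorten the response of a cell to receptor ligands such as lysophosphatidic acid, thrombin, prostaglandins and nucleotides, all of which act on keratinocytes. RGS2, RGS4, RGS5 and RGS16 belong to the small R4 subfamily, RGS10 to the R12 subfamily and RGS20 to the RZ subfamily. RGS4, RGS5 and RGS16 are also known as substrates of the N-degron pathway, which degrades proteins by their amino terminus, so that their protein levels need not follow their mRNA.

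RefSeq (GRCh38.p14) gave promoter windows of 300 bases, 250 before and 50 after a start, for 5 of the 6 members, 10 windows in all. RGS2, RGS4, RGS5 and RGS16 lie on chromosome 1 and RGS10 on chromosome 10. Windows of RGS4 and RGS10 are shown because these genes differed in opposite directions between HaCaT-EGFR and HaCaT-vector, 1 of 4 windows for RGS4 and 1 of 2 for RGS10, picked after their matches were seen. The RGS4 window is chr1:163069111-163069410 on the plus strand and the RGS10 window chr10:119542670-119542969 on the minus strand, with capitals marking matches, on either strand, to the TATA box (letters TATAAA) or the GC box (letters GGGCGG) or the EGR site (letters GCGNGGGCG).
RGS4: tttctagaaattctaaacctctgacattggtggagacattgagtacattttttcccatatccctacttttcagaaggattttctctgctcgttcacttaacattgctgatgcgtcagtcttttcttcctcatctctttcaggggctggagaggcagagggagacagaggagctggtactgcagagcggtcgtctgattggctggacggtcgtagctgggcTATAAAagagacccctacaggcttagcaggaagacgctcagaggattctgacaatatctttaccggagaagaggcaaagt
RGS10: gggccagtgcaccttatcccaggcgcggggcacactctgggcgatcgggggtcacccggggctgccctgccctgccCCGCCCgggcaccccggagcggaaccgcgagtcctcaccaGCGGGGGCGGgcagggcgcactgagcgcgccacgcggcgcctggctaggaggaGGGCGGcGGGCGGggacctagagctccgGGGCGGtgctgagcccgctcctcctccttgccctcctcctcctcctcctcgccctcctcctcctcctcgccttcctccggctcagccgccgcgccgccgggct
The RGS4 window shown held 1 TATA box, starting 30 bases before the start, and no GC box, and 47% of its bases were G or C. The other 3 RGS4 windows held neither box and were 40.7% to 50.3% G or C. The RGS10 window shown was 77.3% G or C and held 5 GC boxes and 1 EGR match that overlaps a GC box. The second RGS10 window (chr10:119536537-119536836, minus strand) was 48.7% G or C and held no match to the 3 motifs. TATAAA was held by 11.5% of all 35116 windows, GGGCGG by 45% and GCGNGGGCG by 9.43%. TGANTCA (AP-1 site) and TGACGTCA (cAMP response element) matched none of the 10 windows, against 7.71% and 1.85% of all windows. A loose form of the NF-kappaB site, which 58.7% of all windows hold, matched at least 1 window each of RGS2, RGS5, RGS10 and RGS16 and none of the 4 RGS4 windows. These matches describe letters and no factor binding was measured.

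Array medians over all probe sets ran from 4.98 to 5.24, and no 2 arrays were identical. Of the keratinocyte markers KRT5 was at 10.84 to 13.13 and KRT14 at 10.72 to 13.45 on the 58 arrays, while the mean of 4 leukocyte markers stayed at 3.89 to 4.51, that of 3 melanocyte markers at 4.23 to 4.91 and that of 8 pericyte and smooth muscle markers at 4.57 to 5.24. The mean of 4 endothelial markers ran from 4.17 to 5.76 and that of 5 fibroblast markers from 4.67 to 5.83. Some single markers moved with a line in serum against HaCaT-vector: CDH5 (endothelial) was 4.29 higher and KRT14 changed by -2.33 in HaCaT-HRAS, and COL3A1 (fibroblast) was 2.24 higher and KRT14 changed by -0.72 in HaCaT-EGFR. Their part in the RGS results was not tested. In the text a gene passed the test when limma's adjusted p, over 19775 genes, was at or under 0.05, and the share of all genes that passed is given beside the members. HaCaT-EGFR in serum alone joins the processing date of the other serum lines to the other dates. That date holds 3 of its 5 arrays. Removing date effects set the mean of the remaining 2 arrays to that of these 3. Its differences from another line in serum rest on those 3 arrays, and a lack of overlap of the other 2 is no separate evidence.

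**Figure D1:**
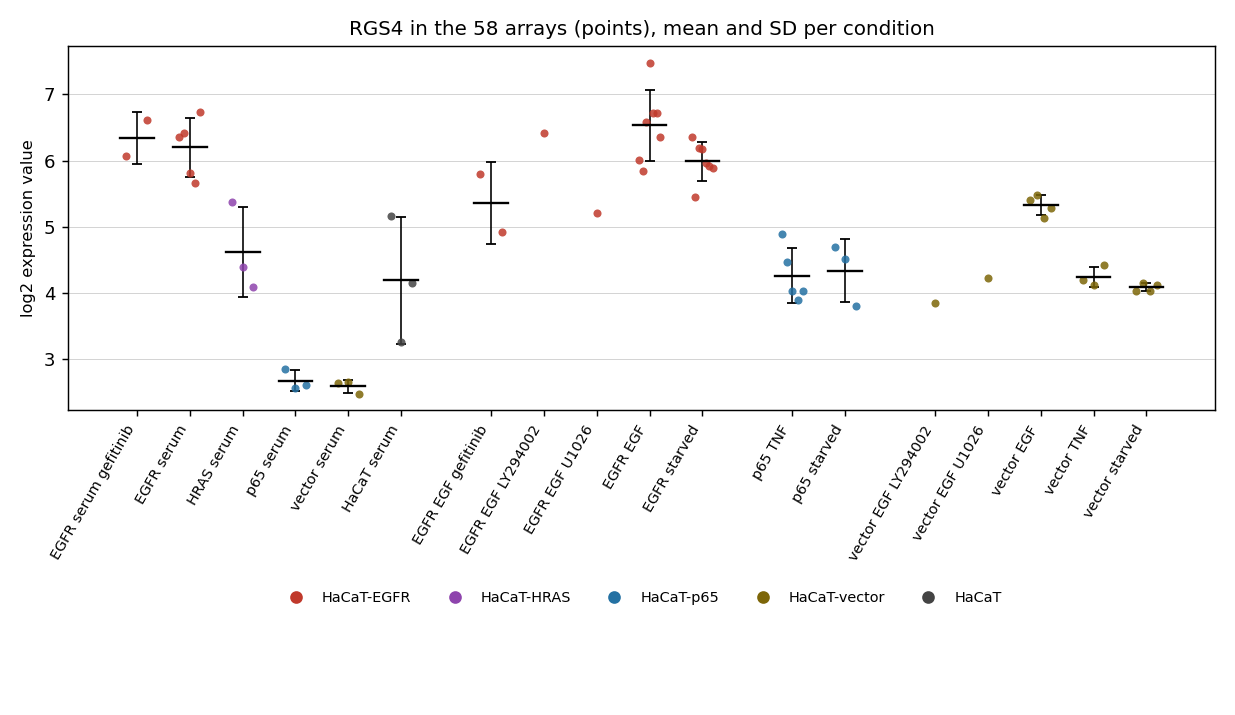
RGS4 log2 expression value (vertical axis) on each of the 58 arrays (points, coloured by line) in the 18 conditions (horizontal axis), with the mean and SD where a condition has more than 1 array. The 5 HaCaT-EGFR serum arrays sit between 5.66 and 6.74, above the HaCaT-HRAS, HaCaT-p65, HaCaT-vector and HaCaT serum arrays, and HaCaT-p65 and HaCaT-vector arrays in serum sit lowest.

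RGS4, an inhibitor of Gi and Gq signaling, had the widest range of the 6 genes over the date-adjusted condition means, 3.94 log2 units. In serum it stood at 6.36, 6.41, 5.82, 5.66 and 6.74 in HaCaT-EGFR, against 2.64, 2.66 and 2.48 in HaCaT-vector. All HaCaT-vector and HaCaT-p65 values in serum lay well under 4.36, the 25th percentile of gene values. The lowest percentile of RGS4 on any array was 0.0506. Detection was not examined, so a difference from these groups need not measure a fold change of mRNA. HaCaT-EGFR and HaCaT-vector did not overlap and differed by 3.60. RGS4 was selected on this difference and on the one between HaCaT-vector and HaCaT, and the other line comparisons in serum use the same arrays, so all of them are given as descriptions with no test. Parental HaCaT had 5.17, 3.26 and 4.15, a wide spread that left all 3 HaCaT-vector arrays below it, by 1.60 on average. HaCaT-EGFR lay 2.00 above HaCaT, which is the sum of the preceding differences.

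HaCaT-HRAS, which expresses a mutant RAS, had RGS4 at 5.38, 4.39 and 4.09 in serum, all above the HaCaT-vector values. RGS4 was 2.03 higher in HaCaT-HRAS than in HaCaT-vector. Against parental HaCaT the same HaCaT-HRAS arrays differed by 0.43, and the groups overlapped. HaCaT-p65 had 2.86, 2.57 and 2.61, which overlap the HaCaT-vector values (difference 0.08) and lie below every HaCaT array. The difference between HaCaT-p65 and HaCaT was -1.52, and it was -1.03 without HaCaT serum replicate 1, the array with the highest RGS4 of its group. All of these serum comparisons share the HaCaT-vector or the HaCaT arrays, so they are not separate observations.

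After starvation RGS4 was higher in HaCaT-EGFR than in HaCaT-vector as well. It ran from 5.45 to 6.36 over the 7 starved HaCaT-EGFR arrays (median 5.97). In the 4 starved HaCaT-vector arrays it stood at 4.04, 4.16, 4.04 and 4.13, under the 25th percentile of gene values (4.36). The groups did not overlap and RGS4 was 1.90 higher in HaCaT-EGFR (SE 0.416, limma adjusted p = 0.00167), and 1.79 higher within the only processing date that both share. Without HaCaT-vector starved replicate 4, the only one of that date, the adjusted p was 0.123 and the difference 1.96. RGS4 was chosen on the serum difference between these lines, so its test after starvation is not independent of that choice. Starved HaCaT-p65 arrays had 4.70, 4.51 and 3.80, overlapping HaCaT-vector (difference 0.24, 95% interval -0.77 to 1.26).

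EGF-treated HaCaT-vector had more RGS4 than the starved line. It stood at 5.40, 5.48, 5.14 and 5.29, every one above the 4 starved arrays, which reached 4.16 at most. The difference was 1.24 (SE 0.325, limma adjusted p = 0.048), and on each of 3 processing dates it lay between 1.03 and 1.41. Leaving out any 1 of the 8 arrays kept the difference between 1.19 and 1.36 but moved the adjusted p to between 0.0979 and 0.228, so the call needed all of them. In HaCaT-EGFR, where RGS4 started higher, EGF-treated arrays ran from 5.85 to 7.48 (median 6.58) and starved arrays from 5.45 to 6.36 (median 5.97), with overlap. RGS4 differed by 0.54 there (SE 0.238, 95% interval 0.06 to 1.02, limma adjusted p = 0.173), and the EGF responses of the lines differed by -0.70 (95% interval -1.51 to 0.12, limma adjusted p = 1). TNF-treated HaCaT-vector had 4.20, 4.12 and 4.42, overlapping the starved arrays (difference 0.15, 95% interval -0.58 to 0.89). EGF exceeded TNF in that line by 1.08 with no overlap (limma adjusted p = 0.167).

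No inhibitor comparison passed the test for RGS4. With gefitinib and EGF HaCaT-EGFR had 5.80 at 4 h and 4.92 at 8 h, both below the lowest of the 7 arrays with EGF alone, 5.85. The difference was -1.17 (SE 0.383, 95% interval -1.94 to -0.40, limma adjusted p = 0.114). In serum RGS4 stood at 6.07 and 6.62 with gefitinib, within the range of serum alone (difference 0.14, 95% interval -0.76 to 1.04). With U1026 RGS4 was at 5.21 in HaCaT-EGFR and 4.23 in HaCaT-vector, below every EGF array of the same line (mean difference -1.21, SE 0.378, limma adjusted p = 0.0709). With LY294002 it was at 6.42 in HaCaT-EGFR, inside the EGF range, and 3.85 in HaCaT-vector, below it (mean difference -0.80, limma adjusted p = 0.468). Each of these last comparisons has 1 array a line.

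The order of RGS4 over the 18 conditions began with HaCaT-vector and HaCaT-p65 in serum, 2.59 ± 0.0981 and 2.68 ± 0.154 (SD, n = 3 each), which overlapped. The single array of HaCaT-vector with EGF and LY294002 followed at 3.85. Starved HaCaT-vector, HaCaT in serum, HaCaT-vector with EGF and U1026, HaCaT-vector with TNF, HaCaT-p65 with TNF, starved HaCaT-p65 and HaCaT-HRAS in serum, at means of 4.09 to 4.62, lay within the spread of their neighbours. HaCaT-EGFR with EGF and U1026 came at 5.21 (1 array) and HaCaT-vector with EGF at 5.33 ± 0.15 (SD, n = 4), next to HaCaT-EGFR with EGF and gefitinib at 5.36. The highest means were those of HaCaT-EGFR, starved (5.99), in serum (6.20), in serum with gefitinib (6.34), with EGF and LY294002 (6.42) and with EGF (6.53), which overlapped one another.

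**Figure D2:**
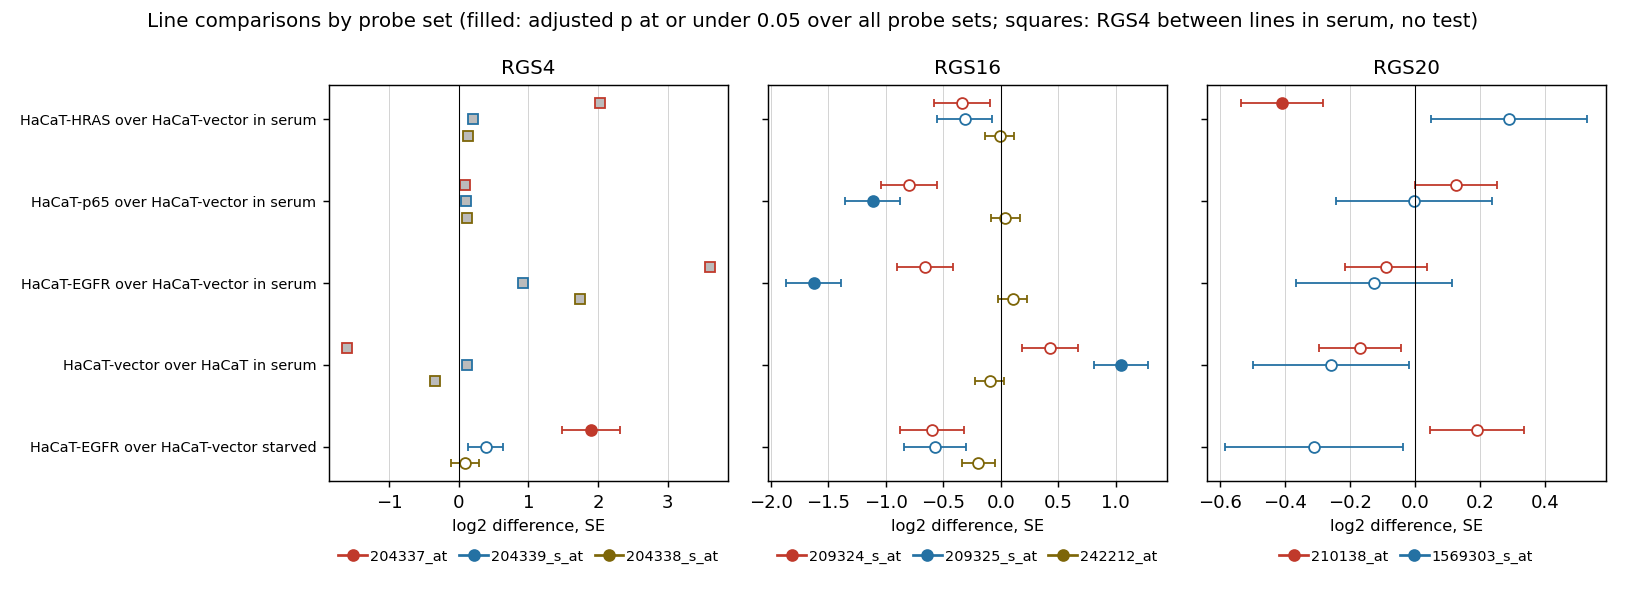
Log2 difference (horizontal axis, bars are the SE) of each probe set of RGS4, RGS16 and RGS20 in 5 line comparisons, with RGS4 between lines in serum as squares without a bar or test. The 3 probe sets of RGS4 stand apart in HaCaT-HRAS over HaCaT-vector, where 204337_at alone is far from 0, while between HaCaT-EGFR and HaCaT-vector in serum all 3 are above 0.

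The probe sets of RGS4 did not move alike. Between HaCaT-EGFR and HaCaT-vector in serum 204338_s_at was higher by 1.74 and 204339_s_at by 0.92, next to 3.60 for 204337_at. In HaCaT-HRAS over HaCaT-vector they differed by 0.14 and 0.20, against 2.03 for 204337_at. With EGF in HaCaT-vector they differed by -0.04 and 0.05, against 1.24, and in starved HaCaT-EGFR over HaCaT-vector by 0.09 and 0.38, against 1.90, and passed in neither. For serum over starvation 204338_s_at differed by -1.64 in HaCaT-vector and -1.70 in HaCaT-p65. For 204337_at these differences were -1.50 and -1.66 and did not pass (SE 0.598 each, limma adjusted p = 0.287 and 0.224). In neither line does a processing date hold both media, so medium and date cannot be told apart there. The RGS4 calls in starved HaCaT-EGFR and with EGF in HaCaT-vector each rest on 1 of 3 probe sets. Which transcripts each probe set reads was not examined.

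**Figure D3:**
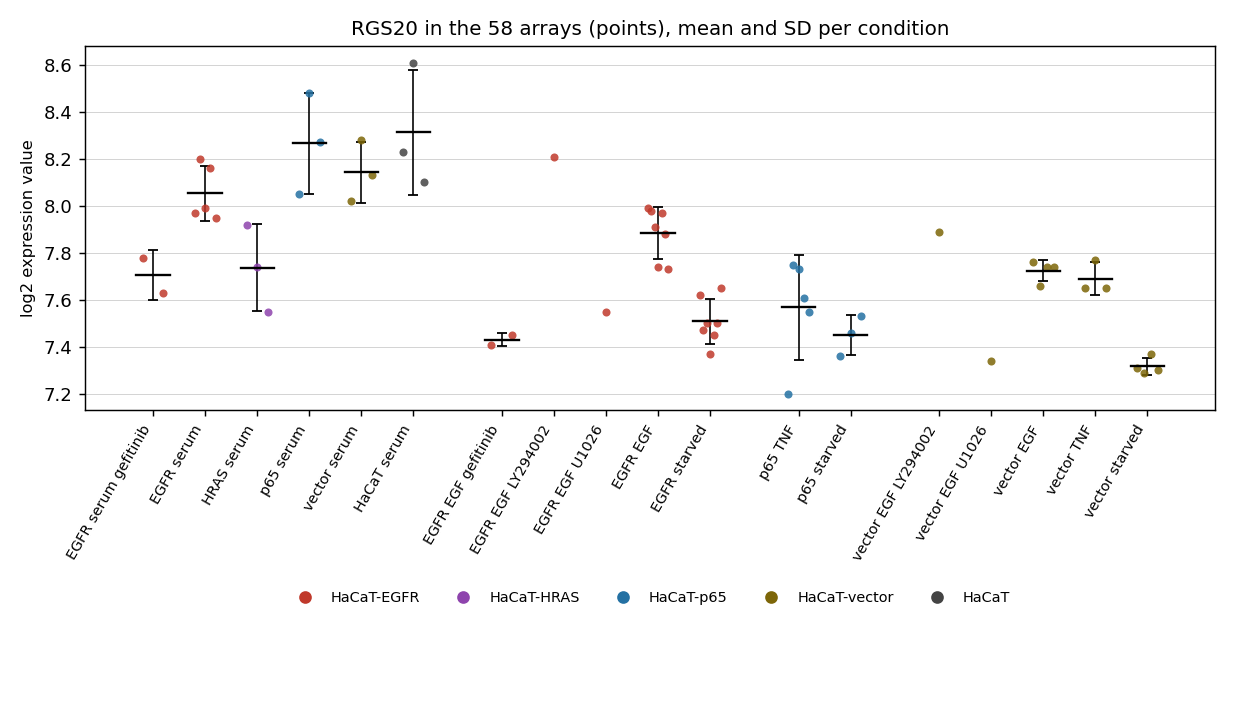
RGS20 log2 expression value (vertical axis) on each of the 58 arrays (points, coloured by line) in the 18 conditions (horizontal axis), with the mean and SD where a condition has more than 1 array. All 7 EGF-treated HaCaT-EGFR arrays, 7.73 and above, sit over all 7 starved ones, 7.65 and below.

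RGS20, an RZ member that acts on Gz and Gi, responded to EGF in HaCaT-EGFR. EGF-treated arrays ran from 7.73 to 7.99 (median 7.91) and starved arrays from 7.37 to 7.65 (median 7.50). The groups did not overlap, RGS20 rose by 0.38 (SE 0.0811, 1.3-fold, limma adjusted p = 0.00179), and the difference was 0.33 to 0.44 on each of 3 processing dates. It remained past the test without any 1 of the 14 arrays. At 4 h the rise was 0.41 (SE 0.0974, limma adjusted p = 0.00734) and at 8 h the difference was 0.30 (95% interval -0.01 to 0.61, limma adjusted p = 0.496, 2 arrays a group), and the change between the times was -0.11 (95% interval -0.48 to 0.26).

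In HaCaT-vector RGS20 stood at 7.76, 7.66, 7.74 and 7.74 with EGF and at 7.65, 7.77 and 7.65 with TNF, against 7.31, 7.29, 7.37 and 7.30 after starvation. Both ligand groups lay above all starved arrays. The differences, 0.41 for EGF (SE 0.110, limma adjusted p = 0.065) and 0.37 for TNF (SE 0.124, limma adjusted p = 0.257), did not pass the test. The EGF responses of HaCaT-EGFR and HaCaT-vector differed by -0.03 (95% interval -0.30 to 0.25). In HaCaT-p65 the TNF-treated arrays had 7.20, 7.75, 7.73, 7.61 and 7.55 and the starved ones 7.36, 7.46 and 7.53, with overlap (difference 0.12, 95% interval -0.11 to 0.35).

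Serum went with higher RGS20 than starvation in all 3 lines that had both. In HaCaT-EGFR serum arrays had 7.97, 8.20, 7.99, 8.16 and 7.95, all above the starved range, and RGS20 was higher by 0.54 (SE 0.130, limma adjusted p = 0.014), or by 0.52 within the 1 date that both share. Without HaCaT-EGFR serum replicate 4 the difference was 0.44 and the adjusted p 0.434. In HaCaT-vector serum arrays had 8.02, 8.28 and 8.13, above the 4 starved arrays, a difference of 0.82 (SE 0.203, limma adjusted p = 0.0354). In HaCaT-p65 serum arrays had 8.05, 8.48 and 8.27, above the 3 starved arrays (0.82, SE 0.203, limma adjusted p = 0.0429). In HaCaT-vector and HaCaT-p65 no date holds both media, and the dates are joined only through the HaCaT-EGFR serum arrays, so there the medium and the date cannot be told apart by the arrays of the line itself. The HaCaT-vector call was lost without serum replicate 2 or 3 or starved replicate 4 (adjusted p 0.4 at most). The HaCaT-p65 call was lost without any 1 array other than serum replicate 1 (adjusted p 0.13 at most).

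Gefitinib and U1026 arrays had lower RGS20. With gefitinib and EGF HaCaT-EGFR had 7.41 and 7.45, below all 7 arrays with EGF alone and within the starved range (difference -0.46, SE 0.130, limma adjusted p = 0.0566). In serum gefitinib arrays had 7.78 and 7.63, below all 5 serum arrays (difference -0.35, limma adjusted p = 0.298). With U1026 RGS20 was at 7.55 in HaCaT-EGFR and 7.34 in HaCaT-vector, below every EGF array of the same line (mean difference -0.36, limma adjusted p = 0.128). With LY294002 the values were 8.21 and 7.89, above every EGF array of the same line (mean difference 0.24, limma adjusted p = 0.554). None of these 4 comparisons passed the test.

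Among the lines in serum RGS20 fell in HaCaT-HRAS, which had 7.92, 7.74 and 7.55, against 8.02, 8.28 and 8.13 in HaCaT-vector and 8.23, 8.61 and 8.10 in HaCaT. The HaCaT-HRAS arrays lay below every array of both lines. The difference was -0.41 against HaCaT-vector (SE 0.124, limma adjusted p = 0.0146) and -0.58 against HaCaT (SE 0.124, limma adjusted p = 0.000484). Against HaCaT-vector it lost the call without HaCaT-vector serum replicate 2 or HaCaT-HRAS serum replicate 3, with an adjusted p of 0.0959 and 0.129. The second RGS20 probe set, 1569303_s_at, passed in none of the 26 comparisons, and it differed by 0.29 (SE 0.240) in HaCaT-HRAS over HaCaT-vector and by 0.11 (SE 0.157) with EGF in HaCaT-EGFR.

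**Figure D4:**
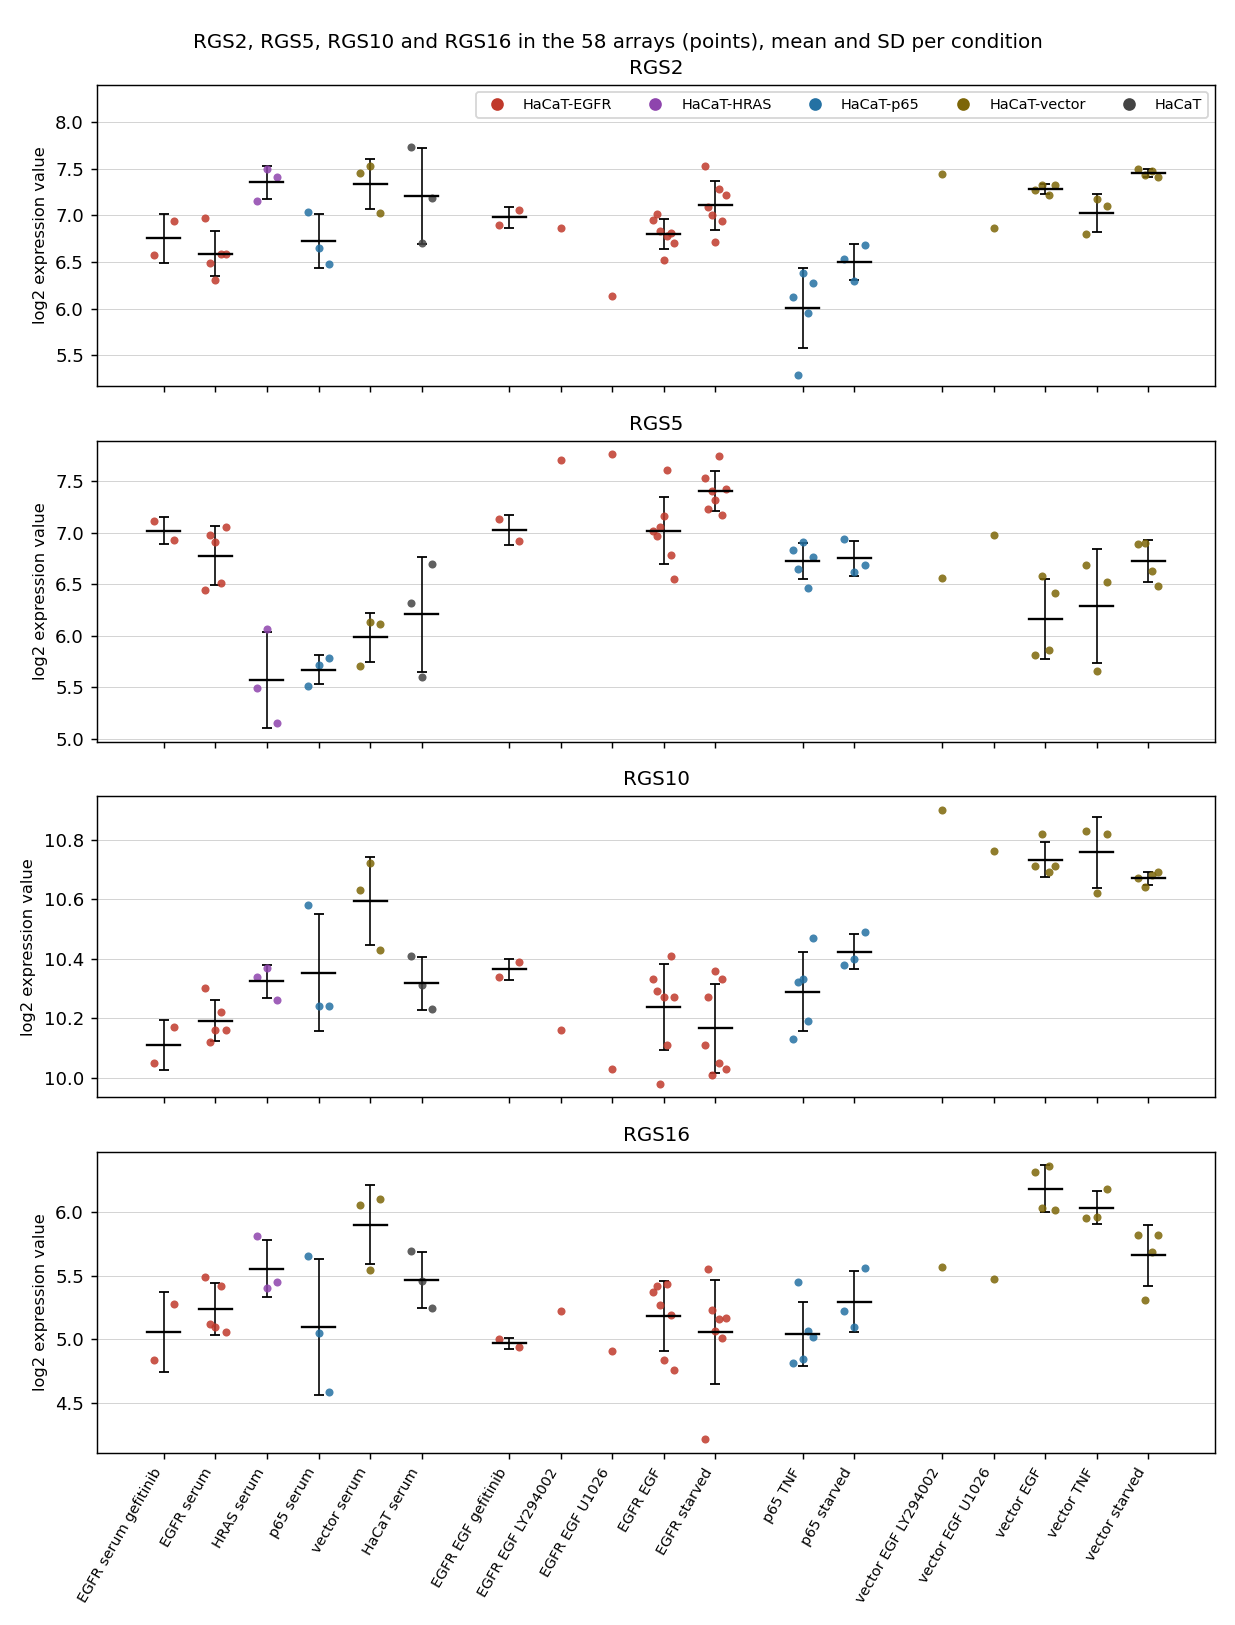
Log2 expression values of RGS2, RGS5, RGS10 and RGS16 (vertical axes, 1 panel a gene) on each of the 58 arrays (points, coloured by line) in the 18 conditions, with the mean and SD where a condition has more than 1 array. RGS10 sits between 9.98 and 10.41 in all HaCaT-EGFR arrays and at 10.43 or above in all HaCaT-vector arrays.

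RGS10, which acts on Gi and is best known from immune cells and platelets, was lower in HaCaT-EGFR than in HaCaT-vector both in serum and after starvation. In serum it had 10.30, 10.12, 10.16, 10.22 and 10.16 in HaCaT-EGFR, against 10.63, 10.72 and 10.43 in HaCaT-vector. It fell by 0.41 (SE 0.108, limma adjusted p = 0.0111), a call lost without HaCaT-vector serum replicate 1 or 2 or HaCaT-EGFR serum replicate 2 (adjusted p 0.0964 at most). After starvation it ran from 10.01 to 10.36 in HaCaT-EGFR (median 10.11), against 10.67, 10.64, 10.68 and 10.69 in HaCaT-vector, and fell by 0.51 (SE 0.124, limma adjusted p = 0.00524). Within the date shared by the starved arrays the difference was -0.56, and without HaCaT-vector starved replicate 4, the only one of that date, the adjusted p was 0.322. Probe set 214000_s_at gave -0.37 and -0.52 in the same comparisons and passed both, and 204316_at gave -0.02 and -0.47 and passed neither.

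HaCaT-HRAS had RGS10 at 10.34, 10.37 and 10.26, below the 3 HaCaT-vector arrays (difference -0.27, limma adjusted p = 0.08). With the replicate number as a block the limma adjusted p was 0.0852, and with the number within each processing date as a block, a setting chosen after seeing the data, it was 0.025. Parental HaCaT, at 10.41, 10.31 and 10.23, lay below HaCaT-vector as well, so that HaCaT-EGFR and HaCaT differed by only -0.12 (95% interval -0.34 to 0.10). No ligand or inhibitor comparison passed for RGS10, and all its EGF and TNF differences lay between -0.13 and 0.14.

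RGS2, an R4 member selective for Gq that early-response signals induce in many cells, was lower in HaCaT-EGFR than in HaCaT-vector in serum. There HaCaT-EGFR had 6.97, 6.49, 6.31, 6.59 and 6.59, against 7.45, 7.53 and 7.03 in HaCaT-vector. RGS2 fell by 0.75 without overlap (SE 0.219, limma adjusted p = 0.0237), and the call was lost without HaCaT-vector serum replicate 1 or 2 or HaCaT-EGFR serum replicate 2 or 3 (adjusted p 0.176 at most). Parental HaCaT in serum, at 7.73, 6.70 and 7.19, overlapped HaCaT-EGFR (difference -0.61, 95% interval -1.06 to -0.17, limma adjusted p = 0.126). After starvation RGS2 ran from 6.71 to 7.53 in HaCaT-EGFR (median 7.09), overlapping the HaCaT-vector arrays (difference -0.34, 95% interval -0.85 to 0.16, limma adjusted p = 0.535). Neither difference between HaCaT-p65 and HaCaT-vector passed. HaCaT-p65 arrays in serum had 7.04, 6.65 and 6.48 (difference -0.62 against HaCaT-vector, limma adjusted p = 0.0885). Starved HaCaT-p65 had 6.53, 6.30 and 6.68, against 7.50, 7.43, 7.48 and 7.41 in starved HaCaT-vector, with no overlap. That difference, -0.95 (SE 0.302, 95% interval -1.56 to -0.34), had a limma adjusted p of 0.0568, and it passed in 5 of 9 other settings of the analysis, 2 of which have no date term. No processing date holds starved arrays of both lines, so line and date cannot be told apart by these arrays themselves.

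With a ligand RGS2 was lower on average in all 4 comparisons with starved arrays, none past the test. TNF-treated HaCaT-p65 had 6.12, 5.29 (the 8 h array), 6.38, 5.95 and 6.27. These include the lowest value of the gene and overlapped the starved arrays (difference -0.50, SE 0.199, limma adjusted p = 0.162). The last of these 5 arrays is labelled as TNF-treated, but the study's sample sheet also names it a control, and without it the RGS2 difference was -0.57 (limma adjusted p = 0.105) and no member passed. In HaCaT-vector TNF-treated arrays had 6.80, 7.18 and 7.10, all below the starved ones (difference -0.43, limma adjusted p = 0.817). For EGF the differences were -0.31 in HaCaT-EGFR (limma adjusted p = 0.202) and -0.17 in HaCaT-vector (limma adjusted p = 0.972). U1026 gave 6.13 in HaCaT-EGFR and 6.86 in HaCaT-vector, below every EGF array of the same line (mean difference -0.55, limma adjusted p = 0.22).

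RGS5, an R4 member known as a marker of pericytes, was higher in HaCaT-EGFR than in HaCaT-vector in serum. In serum HaCaT-EGFR had 6.44, 6.98, 6.91, 6.51 and 7.05, against 5.71, 6.13 and 6.11 in HaCaT-vector. The groups did not overlap and RGS5 rose by 0.80 (SE 0.259, limma adjusted p = 0.0484), a call lost without any 1 of the 3 HaCaT-vector arrays or HaCaT-EGFR serum replicate 2 or 3 (adjusted p 0.247 at most). It was also lost with arrays centred on the median (limma adjusted p = 0.0649), after quantile normalization (0.0599) and with only the compared arrays (0.0501). Of its 5 other probe sets 3 passed in this comparison, with differences of 0.88 to 0.98, and 209070_s_at differed by 0.80 and 1558785_a_at by 0.16 without passing. Parental HaCaT in serum, at 6.32, 5.60 and 6.70, overlapped HaCaT-EGFR (difference 0.57, 95% interval 0.05 to 1.09, limma adjusted p = 0.31). After starvation HaCaT-EGFR ran from 7.17 to 7.74 (median 7.40), above 6.89, 6.90, 6.63 and 6.48 in HaCaT-vector (difference 0.68, limma adjusted p = 0.19).

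Serum arrays had less RGS5 than starved arrays, without overlap in any of the 3 lines, but no difference passed. In HaCaT-vector and HaCaT-p65 no processing date holds both media, so medium and date cannot be told apart by the arrays of the line itself. The values were -0.63 in HaCaT-EGFR (limma adjusted p = 0.224), -0.74 in HaCaT-vector (limma adjusted p = 0.544) and -1.08 in HaCaT-p65 (limma adjusted p = 0.291). U1026 arrays had 7.76 in HaCaT-EGFR and 6.98 in HaCaT-vector, above every EGF array of the same line (mean difference 0.78, limma adjusted p = 0.116). None of the 8 pericyte and smooth muscle markers passed between HaCaT-EGFR and HaCaT-vector, in serum (7.87% of all genes) or starved (7.89%).

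RGS16, an R4 member that acts on Gi and Gq, fell in HaCaT-p65 relative to HaCaT-vector in serum. In serum HaCaT-p65 had 5.65, 5.05 and 4.59, against 6.05, 5.54 and 6.10 in HaCaT-vector, and the groups overlapped. The difference was -0.80 (SE 0.243, limma adjusted p = 0.0346), and it was lost without HaCaT-vector serum replicate 1 or 3 or HaCaT-p65 serum replicate 2 or 3 (adjusted p 0.358 at most). Parental HaCaT had 5.69, 5.46 and 5.25, overlapping HaCaT-p65 (difference -0.37, 95% interval -0.86 to 0.12, limma adjusted p = 0.521). Over all probe sets 209325_s_at fell by 1.11 in the same comparison (limma adjusted p = 0.00197), and it differed by -0.07 between HaCaT-p65 and HaCaT. This probe set also fell by 1.63 in HaCaT-EGFR over HaCaT-vector (limma adjusted p = 5.53e-06), where the representative probe set differed by -0.66 (limma adjusted p = 0.102), and it was higher by 1.05 in HaCaT-vector than in HaCaT (limma adjusted p = 0.00953). The third, 242212_at, passed nowhere. In HaCaT-vector RGS16 lay above all starved arrays both with EGF (6.31, 6.03, 6.36 and 6.01) and with TNF (5.95, 5.96 and 6.18), against 5.82, 5.31, 5.68 and 5.82 after starvation, and neither difference passed (0.52, limma adjusted p = 0.366, and 0.38, limma adjusted p = 0.999).

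**Figure D5:**
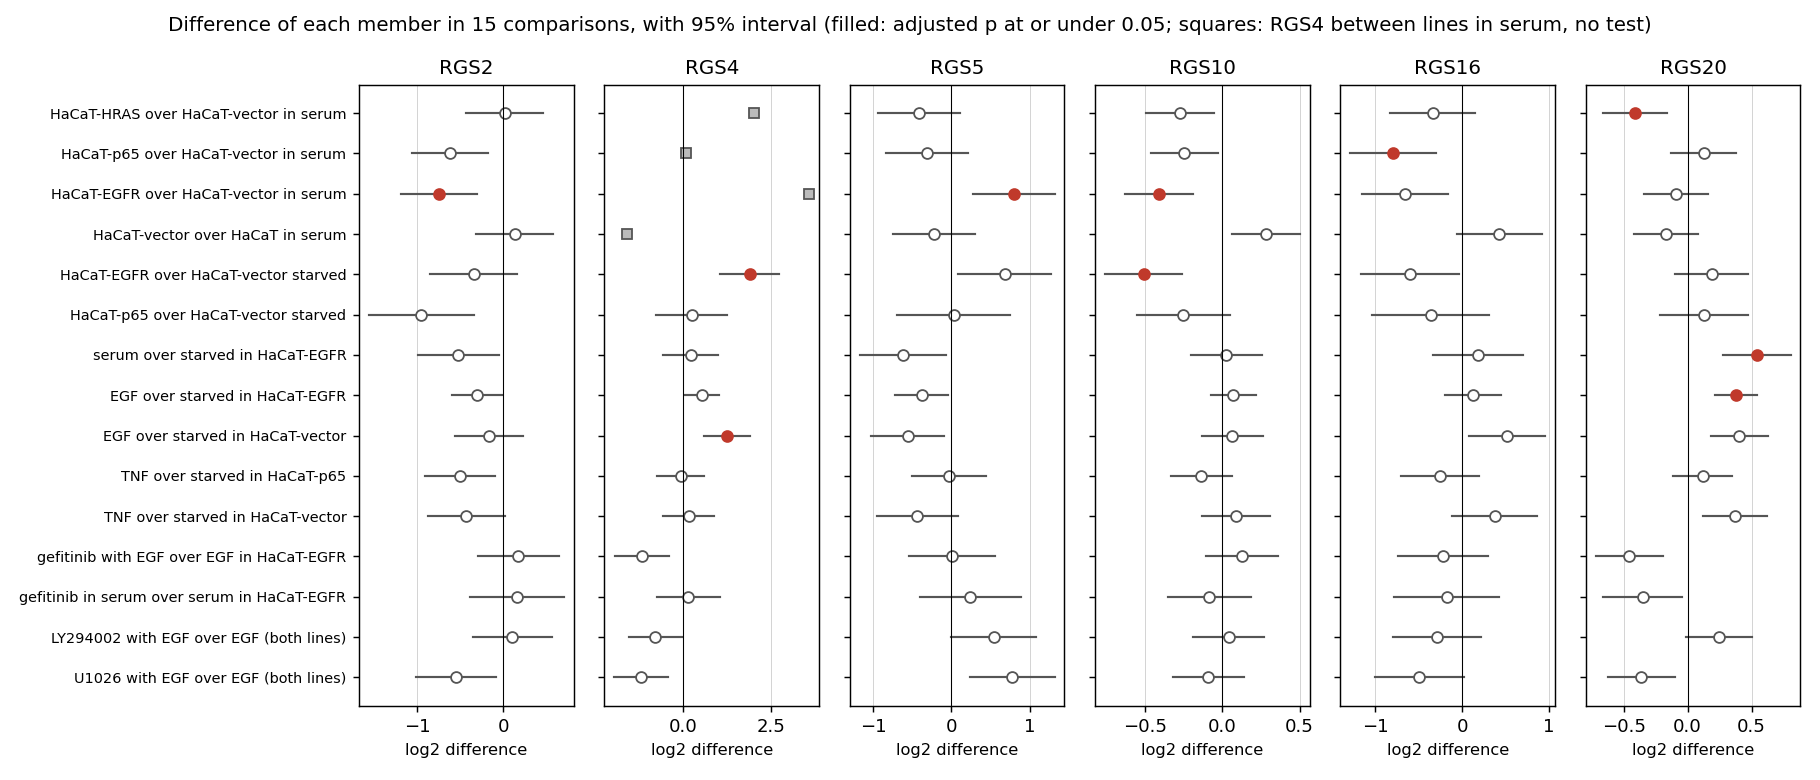
Log2 difference with its 95% interval (horizontal axes) of each member in 15 comparisons (vertical axis). Filled points passed limma's test at an adjusted p of 0.05, and grey squares are RGS4 between lines in serum, given with no test. RGS4 passed upward in HaCaT-EGFR over HaCaT-vector starved and EGF in HaCaT-vector, and RGS20 upward in HaCaT-EGFR with serum and with EGF.

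The members were named with earlier results of these data known, so counts of them are descriptions. RGS4 was chosen on serum arrays of the lines, so between lines in serum the count is over the other 5 members. There 1 passed in HaCaT-HRAS over HaCaT-vector, where 18.2% of all genes passed. In HaCaT-p65 over HaCaT-vector 1 passed (7.18% of genes), in HaCaT-EGFR over HaCaT-vector 3 (7.87%) and in HaCaT-vector over HaCaT 0 (2.87%). Against parental HaCaT 1 passed for HaCaT-HRAS (17.7%), 0 for HaCaT-p65 (5.94%) and 0 for HaCaT-EGFR (3.88%). With RGS4 added, which is no test of it, these counts were 2, 1, 4, 1, 1, 1 and 1 in that order. The other comparisons are counted over all 6 members. After starvation 2 passed in HaCaT-EGFR over HaCaT-vector (7.89%) and 0 in HaCaT-p65 over HaCaT-vector (5.3%). Serum over starvation gave 1 in HaCaT-EGFR (3.25%), 1 in HaCaT-vector (0.976%) and 1 in HaCaT-p65 (0.703%), RGS20 each time. EGF gave 1 in HaCaT-EGFR (8.8%) and 1 in HaCaT-vector (1.01%), and at 4 h 1 (5.87%) and at 8 h 0 (0.339%) in HaCaT-EGFR. TNF gave 0 in HaCaT-p65 (2.03%) and 0 in HaCaT-vector (0.905%), and EGF over TNF 0 (1.41%). The inhibitor comparisons gave 0 for gefitinib with EGF (1.81%), 0 for gefitinib in serum (1.79%), 0 for LY294002 (0.693%) and 0 for U1026 (3.02%). The differences between EGF responses of the lines (0%), between EGF responses at 8 h and 4 h (0%) and between TNF responses (0.0101%) had none either. At an unadjusted p under 0.05, limma gave 1 member for starved HaCaT-p65 over HaCaT-vector, 0 for EGF at 8 h, 1 and 1 for TNF in HaCaT-p65 and HaCaT-vector, 1 for EGF over TNF, 2 and 1 for gefitinib with EGF and in serum, 1 for LY294002, 4 for U1026, and 0, 0 and 0 for the differences between EGF responses of lines, EGF responses at the times and TNF responses. The median of the members was -0.305 in HaCaT-HRAS over HaCaT-vector (all genes -0.036), -0.249 in HaCaT-EGFR over HaCaT-vector (all genes -0.001) and 0.10 with EGF in HaCaT-EGFR (all genes -0.01).

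Of the other RGS genes 14 of 15 were measured. In HaCaT-HRAS over HaCaT-vector, where 18.2% of all genes passed, 2 rose and 1 fell: RGS17, like RGS20 of the RZ subfamily, rose by 3.38 (limma adjusted p = 3.09e-17), RGS22 by 0.64, and RGS14 fell by 0.53. HaCaT-HRAS over HaCaT had 2 higher and 2 lower (17.7% of all genes). In HaCaT-p65 over HaCaT-vector (7.18%) RGS18 rose by 0.57 and RGS3 fell by 0.55, and over HaCaT (5.94%) RGS19 rose by 0.57 and RGS3 fell by 0.62. RGS18 ran from 2.91 to 4.42 over the 58 arrays (median 3.26) and RGS22 from 3.66 to 4.76 (median 3.95). These medians and that of RGS17 (3.85) lay under 4.36, the 25th percentile of gene values, and detection was not examined. Starved HaCaT-EGFR had more RGS17 (0.85, limma adjusted p = 0.0103) and less RGS3 (-0.65, limma adjusted p = 0.0129) than starved HaCaT-vector. Between HaCaT-EGFR and HaCaT-vector in serum (7.87% of all genes) only RGS19 passed, at -0.39. With EGF RGS19 rose by 0.28 in HaCaT-EGFR (limma adjusted p = 0.0156), and with gefitinib it fell by 0.46 beside EGF and by 0.58 in serum, as RGS14 did by 0.69 and 0.75. The list's median was -0.01 in HaCaT-HRAS over HaCaT-vector and -0.06 between HaCaT-EGFR and HaCaT-vector in serum.

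Among the 15 G alpha subunits GNA15, a Gq-class subunit of epithelial and blood cells, moved with the ligand. It rose by 0.51 with EGF in HaCaT-EGFR (limma adjusted p = 5.41e-05), fell by 0.60 when gefitinib was added (limma adjusted p = 0.0097), and was higher in serum than after starvation in HaCaT-EGFR (0.53) and HaCaT-vector (0.87). GNA15 was the only subunit of the list that passed with EGF in HaCaT-EGFR, where 8.8% of all genes passed. HaCaT-HRAS had 2 subunits higher and 2 lower than HaCaT-vector (18.2% of all genes passed), with GNAI1 at -1.06, GNAL at 1.02 and GNAS at 0.64. Of 14 beta and gamma subunits GNG4 rose by 3.80 in HaCaT-HRAS (limma adjusted p = 3.94e-13) and by 1.17 in HaCaT-p65 over HaCaT-vector, and GNG11 rose by 0.52 in HaCaT-EGFR over HaCaT-vector. Of 13 phospholipase C beta and adenylyl cyclase genes PLCB1 rose by 3.20 in HaCaT-HRAS, and ADCY9 fell by 1.02 in HaCaT-HRAS and by 0.97 in HaCaT-p65, each against HaCaT-vector.

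Of 27 measured receptors 4 rose and 3 fell in HaCaT-HRAS over HaCaT-vector, where 18.2% of all genes passed. They were led by AGTR1, the angiotensin II receptor (4.72, limma adjusted p = 2.14e-23), CXCR4, a chemokine receptor (3.05), and P2RY1, a nucleotide receptor (2.13). Between HaCaT-EGFR and HaCaT-vector in serum (7.87% of all genes) 2 rose and 3 fell, with S1PR3, a sphingosine 1-phosphate receptor, at 1.21, PTGER2, a prostaglandin E2 receptor, at 1.15 and P2RY1 at -0.95. With EGF in HaCaT-EGFR (8.8% of all genes) 3 rose and 1 fell, among them the adenosine receptor ADORA2B (0.58) and S1PR5 (-0.64). With U1026 (3.02%) 4 fell, among them PTGER2 (-1.28), ADORA2B (-0.76) and P2RY1 (-0.75). No receptor passed for gefitinib with EGF (1.81% of all genes). The medians of the list lay between -0.178 and 0.141 in the 26 comparisons.

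Of 7 genes of the N-degron pathway 2 passed in HaCaT-HRAS over HaCaT-vector (18.2% of all genes), where METAP1 fell by 0.66 and UBR4 by 0.59. In HaCaT-p65 over HaCaT-vector (7.18%) UBR1, a ubiquitin ligase of the pathway, rose by 0.70 and METAP2, a methionine aminopeptidase, fell by 0.48. Of the 7, none passed with HaCaT-EGFR set against HaCaT-vector, where 7.87% of all genes passed in serum and 7.89% after starvation. With only 7 genes, a count of none cannot be told apart from these shares. The 15 feedback genes of ERK signaling were read in the same comparisons, and their relation to the RGS values was not tested. EGF in HaCaT-EGFR (8.8% of all genes) raised 10 and lowered 1, with FOSL1 at 1.43, DUSP4 at 1.33 and SPRY4 at 1.09. In HaCaT-vector (1.01%) it raised 3. Gefitinib lowered 8 beside EGF (1.81%) and 13 in serum (1.79%) and raised none, and U1026 (3.02%) lowered only EGR1 (-1.47). LY294002 changed none. The medians of the list were 0.42 with EGF in HaCaT-EGFR, -0.75 for gefitinib with EGF and -1.73 for gefitinib in serum, beside -0.01, -0.02 and -0.01 over all genes.

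Over the 18 date-adjusted condition means the genes nearest to RGS4, among 5767 whose means ranged over at least 1 log2 unit, were NEFH (r = 0.91), GSTM3 (0.90), ZNF677 (0.90), SYT11 (0.87) and LEF1 (0.87). Nearest to RGS20 were TMEM158 (0.88), SMTN (0.87), HYCC2 (0.86), PDLIM2 (0.85) and EFNB2 (0.84). RGS5 was nearest to ZNF382 (0.94), TNFSF13B (0.93), CA5B (0.93), TTC9B (0.93) and CIC (0.93), and RGS10 to MGMT (0.93), ESD (0.92), FOXA1 (0.92), HACD4 (0.91) and SGSM3 (0.90). RGS2 was nearest to LOC154761 (0.88), PIK3R1 (0.86), FNBP1 (0.85), FZD1 (0.84) and MSX2 (0.83), and RGS16 to FAM118A (0.87), CYBA (0.86), SLC25A21 (0.86), FUCA2 (0.86) and TLR2 (0.86). Among the members themselves RGS10 and RGS16 ran most alike (0.78), RGS4 ran with RGS5 (0.66) and against RGS10 (-0.56), and RGS20 stood apart, with no correlation over 0.34 in size. The points share lines, dates and arrays, so these values are descriptions.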

How the data were processed

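Total RNA of 58 HaCaT samples in 18 conditions was hybridised to Affymetrix U133 Plus 2.0 arrays. The deposited log2 values were made by the authors, who normalized the arrays with fRMA and subtracted the processing-date coefficients of a limma fit of condition and date. The log2 scale compresses low values and no detection calls were used. Of 54675 probe sets 41097 carry 1 gene symbol, and the probe set with the highest mean stood for each of 19775 genes. A linear model of the 18 conditions and 6 processing dates was fitted with limma (version 3.58.1, R 4.3.3) to all 58 arrays, keeping the date terms so that the degrees of freedom already spent are counted (35 residual), with Benjamini-Hochberg adjustment over 19775 genes and a threshold of 0.05. The fitting script was also run on simulated data. Times were compared in a fit with 22 conditions. Members and gene lists were chosen with earlier results of these data known. Named genes are the 6 members with all probe sets, the 5 genes nearest each by correlation of condition means, and at most 3 passing genes a list and comparison. Titles number the replicates of every group. Same-numbered residuals all correlated above 0.1 only for HaCaT-HRAS or HaCaT-EGFR with HaCaT-vector in serum (0.191 to 0.529), and these were read as paired. The main fit holds no term for that pairing. Elsewhere the correlations were mixed, as at 0.0844 to 0.584 for HaCaT-p65 with HaCaT-vector. Alternatives were no date term, only the compared arrays, median centring, quantile normalization, a filter on dim probe sets, another probe set a gene, trend and robust eBayes, blocks for the replicate number, and each array left out.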

Additional observations from a re-analysis of the deposited data

Results flagged for a closer look

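In groups of 4 to 7 arrays the highest or lowest array stood far from the others, by its gap over the range, in 2 of 36 groups of a member, where chance gives about 1 in 20. RGS10 in HaCaT-vector with EGF was 10.82 on replicate 2, with the other 3 arrays at 10.69 to 10.71 (ratio 0.861). RGS16 in starved HaCaT-EGFR was 4.22 on replicate 1, with the other 6 arrays at 5.01 to 5.55 (ratio 0.593). No member's EGF or TNF response differed between lines past the test.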

How the results depend on the processing

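No difference of a member changed direction past the test under any setting. All counts below are over the 6 members, so between lines in serum they include RGS4, which was chosen there. The share of all genes that passed under each setting is not given here. A moved count therefore cannot be told apart from a general change in calls. Of the 6 members, these counts passing the test moved by over 1.5 times. Without the date term 2 passed in HaCaT-EGFR over HaCaT, 4 in starved HaCaT-EGFR and 2 in starved HaCaT-p65 over HaCaT-vector, 3 for serum over starvation in each of HaCaT-EGFR, HaCaT-vector and HaCaT-p65, 2 for EGF in HaCaT-vector, 2 for gefitinib with EGF and 3 for U1026. With arrays centred on the median 0 passed for serum over starvation in HaCaT-vector and HaCaT-p65 and 0 for EGF in HaCaT-vector. After quantile normalization 2 passed for EGF in HaCaT-vector and 1 for gefitinib with EGF, and the median over all genes shifted by at most 0.0265. With the 11657 genes whose highest condition mean was at least 6, 1 passed in starved HaCaT-p65, 2 for EGF in HaCaT-vector, 1 for gefitinib with EGF and 1 for U1026. With the probe set of largest variance a gene, 2 passed in HaCaT-vector over HaCaT, 2 in HaCaT-HRAS over HaCaT, and 0 for serum over starvation in HaCaT-vector and HaCaT-p65 and for EGF in HaCaT-vector. With trend and robust eBayes 1 passed in starved HaCaT-p65 and 1 for gefitinib with EGF. With only the compared arrays, and so few residual degrees of freedom, 1 passed in HaCaT-HRAS, 0 in HaCaT-p65 and 1 in HaCaT-EGFR over HaCaT-vector with serum, 0 in each line over HaCaT (HaCaT-vector, HaCaT-HRAS, HaCaT-p65 and HaCaT-EGFR), 1 in starved HaCaT-EGFR and 2 in starved HaCaT-p65 over HaCaT-vector, 0 for serum over starvation in HaCaT-EGFR, 3 in HaCaT-vector and 3 in HaCaT-p65, 2 for EGF in HaCaT-vector and 1 for EGF over TNF. The cause was not tested for the other settings.

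Same-numbered arrays of HaCaT-HRAS or HaCaT-EGFR with HaCaT-vector in serum were read as paired, since all their residuals correlated above 0.1. The main fit has no replicate term, so the adjusted p-values given for these comparisons leave that pairing out. Elsewhere the correlations were mixed, and 21 of all 37 same-numbered pairs of arrays had residuals correlated above 0.1. The lowest, -1 for a pair of HaCaT-vector with EGF and starved, is set by the terms of the fit. On dates with few arrays the correlations therefore cannot decide whether arrays were paired. With the number as a block 1 member passed in starved HaCaT-p65 over HaCaT-vector and 1 for U1026, and RGS4 with EGF in HaCaT-vector differed by 1.16 with a limma adjusted p of 0.0606. With the number within each date as a block, chosen after seeing the data, 3 passed in HaCaT-HRAS over HaCaT-vector, RGS10 among them, and 0 for EGF in HaCaT-vector. Neither block moved another count by over 1.5 times. Against HaCaT-vector in serum, RGS20 in HaCaT-HRAS and RGS2, RGS5 and RGS10 in HaCaT-EGFR kept their calls under either block.

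With each array left out, the counts ran from 1 to 3 in HaCaT-HRAS, 0 to 2 in HaCaT-p65 and 1 to 4 in HaCaT-EGFR over HaCaT-vector with serum, 0 to 1 in HaCaT-vector, 1 to 2 in HaCaT-HRAS, 0 to 3 in HaCaT-p65 and 1 to 2 in HaCaT-EGFR over HaCaT, 0 to 2 in starved HaCaT-EGFR over HaCaT-vector, 0 to 1 for serum over starvation in HaCaT-EGFR, HaCaT-vector and HaCaT-p65, 0 to 1 for gefitinib with EGF, and were 0 each time for EGF in HaCaT-vector. Precision is limited by the number of arrays, with 1 or 2 in each inhibitor group.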
